A study of Mus musculus with 6 samples.

Results

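The epidermal growth factor (EGF) family was described here by 10 genes, which are the 6 ligand genes Egf, Ereg, Hbegf, Tgfa, Btc and Nrg1 and the 4 receptor genes Egfr, Erbb2, Erbb3 and Erbb4. They were found by gene symbol among the probe sets that carry exactly 1 symbol in the array annotation, and all 10 were among the 22180 genes measured. RNA came from cells that were sorted out of mouse gliomas with an antibody against CD105 (endoglin), are labelled tumor-associated endothelial cells, and were exposed for 12 h to glioma-conditioned medium. The Tie2-Cre group consisted of mice 1, 3 and 4 with the genotype Tie2-Cre,Pfn1fl/fl:Y129F, and the no Cre group of mice 6, 7 and 10 with the genotype Pfn1fl/fl:Y129F. All 6 mice thus carried floxed Pfn1 together with the Y129F form of profilin-1, an actin-binding protein, and the groups differed by label only in Cre, which the Tie2 (Tek) promoter drives in endothelial and blood-forming cells. The sources used here give neither ages nor the way Cre rearranges the Pfn1 alleles. By its title, the series is about profilin-1 phosphorylation and its role in gene expression of these cells.

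EGF family ligands are made as membrane proteins, and metalloproteases of the ADAM family release their soluble forms. Epidermal growth factor, transforming growth factor alpha, epiregulin, betacellulin and heparin-binding EGF-like growth factor bind the EGF receptor, and some of them also bind ERBB4. Neuregulin 1 binds ERBB3 and ERBB4. ERBB2 has no known ligand and acts by pairing with the other receptors. Active receptors signal through RAS and ERK and through PI3K and AKT. In gliomas Egfr is best known as a gene that the tumor cells amplify, and in vessels heparin-binding EGF-like growth factor and neuregulin 1 are known as signals that endothelial cells make.

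Values are log2 of the deposited array intensities, with 1 array per mouse, and a change is the log2 difference Tie2-Cre minus no Cre. A change passed the test where the limma p-value, adjusted over all genes by the Benjamini-Hochberg method, lay under 0.05. Over all genes, 4.78% were higher with Tie2-Cre, 7.17% were lower, and 12.0% passed in either direction. The array medians lay between 7.08 and 7.14 log2, and pairs of arrays correlated across genes at Pearson's r of 0.994 to 0.996 within a group, against 0.986 to 0.988 for pairs from both groups. No 2 arrays held identical values. Pfn1 itself lay at 12.41 ± 0.0045 (SD, n = 3 mice) with Tie2-Cre and at 12.37 ± 0.026 (SD, n = 3 mice) without Cre (change 0.04, limma adjusted p 0.776), a level that includes the Y129F form and any other form of the RNA. Eng, the gene of the sorting antigen, was bright at a mean of 11.91, whereas the other 12 endothelial markers had means between 4.27 and 7.31, among them Pecam1, Cdh5, Kdr and Tek. The brightest fibroblast markers, Dcn, Pdpn and Col1a1, had means of 12.83, 12.17 and 12.05. The brightest mural cell markers were Acta2, Tagln and Pdgfrb, at 13.54, 12.54 and 11.93. Both lists also held dim genes, with the lowest means at 6.87 for the fibroblast gene Lum and 7.07 for the mural gene Abcc9. Of the endothelial markers, only the sorting antigen was thus bright on these arrays, although probe sets differ in brightness and give no shares of cells.

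The groups also differed in sex-linked genes. Xist, which acts in X inactivation, was lower with Tie2-Cre by 5.59 log2 units, a change of -5.59 (SE 0.17), and the Y-linked Uty, Eif2s3y and Kdm5d were higher by 4.47, 4.14 and 3.70. No array lay with the other group in any of these 4 genes. The effects of Cre and of sex cannot be told apart in any comparison that follows.

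Of the 10 genes, 3 fell with Tie2-Cre, 0 rose and 7 did not pass the test (limma). At an unadjusted p under 0.05 the counts were 5 lower and 0 higher, beside 3162 lower and 2362 higher of all 22180 genes. The 3 that fell were all ligands, namely Ereg, Hbegf and Nrg1. In 4 of the 10 all arrays of one group lay beyond all arrays of the other, beside 31.0% of all genes. The median change was -0.17 over the 10 genes and -0.0042 over all genes. The 3 lower genes stand beside 7.17% of all genes.

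**Figure D1:**
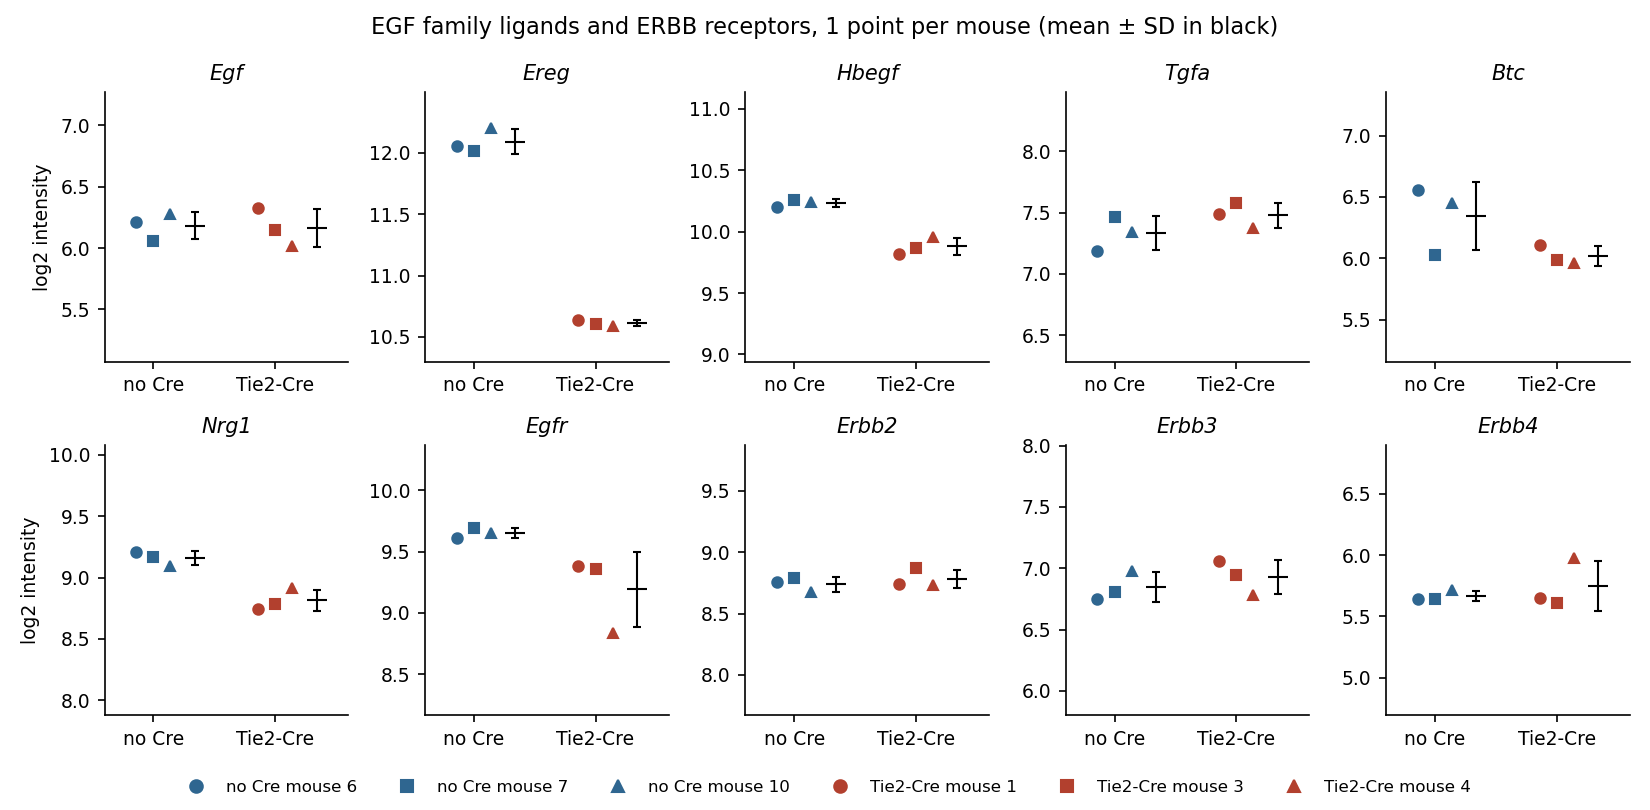
Log2 intensity of each of the 10 genes in each mouse, with every panel spanning the same number of log2 units. Blue points are no Cre mice, red points Tie2-Cre mice, and black bars the mean ± SD of 3 mice. Ereg shows the widest gap, 10.61 against 12.09, and in Egfr the Tie2-Cre mouse 4 lies below the other 2 mice of its group.

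Epiregulin (Ereg), a ligand of the EGF receptor and of ERBB4 that is made in inflammation and wound repair, changed most. Its log2 intensity was 10.64, 10.61 and 10.59 in Tie2-Cre mice 1, 3 and 4 and 12.05, 12.02 and 12.21 in no Cre mice 6, 7 and 10. The groups were far apart and each was tight, with SDs of 0.026 and 0.10. Ereg fell by 1.48 on the log2 scale (SE 0.074, 95% confidence interval -1.65 to -1.31, limma adjusted p 2.41e-05), so that the intensity without Cre was 2.79 times that with Tie2-Cre. By size of change it ranked 106 among the 22180 genes. In sorted cells measured in bulk, fewer cells of a type and less RNA per cell cannot be told apart, here and in the results that follow.

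A dimmer probe set of Ereg, which the choice of the brightest had set aside, gave a separate reading of the same RNA. It lay at 7.80, 7.64 and 7.83 in Tie2-Cre mice 1, 3 and 4 and at 8.76, 8.49 and 8.81 in no Cre mice 6, 7 and 10. All 3 Tie2-Cre mice were again below all 3 others. Its change was -0.93 (SE 0.11, limma adjusted p 0.00704 over all 41345 probe sets), against -1.48 for the brighter probe set, and the mean of both gave -1.21. The direction was thus shared, while the size depended on the probe set.

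In the mouse RefSeq annotation (GRCm38.p6), Epgn, Ereg, Areg and Btc are successive protein-coding genes on chromosome 5, and all encode EGF receptor ligands. Of these neighbours, Ereg was the only gene of the 3 measured that passed the test. Epgn, the gene of epigen, changed by 0.04 (95% confidence interval -0.19 to 0.27), and Btc by -0.33 (-0.63 to -0.02). Areg was not analysed here. Whether these changes differ from that of Ereg was not tested.

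Heparin-binding EGF-like growth factor (Hbegf) is a ligand of the EGF receptor and ERBB4 whose membrane form is also the diphtheria toxin receptor in humans. Its log2 intensity was 9.82, 9.87 and 9.96 in Tie2-Cre mice 1, 3 and 4 and 10.20, 10.26 and 10.24 in no Cre mice 6, 7 and 10. The groups did not overlap, and the nearest arrays were Tie2-Cre mouse 4 and no Cre mouse 6. The change was -0.35 (SE 0.068, 95% confidence interval -0.51 to -0.20, limma adjusted p 0.0137), or an intensity 1.28 times as high without Cre. The call was lost without no Cre mouse 7 (change -0.34, adjusted p 0.0554) and without no Cre mouse 10 (-0.35, adjusted p 0.0517).

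Neuregulin 1 (Nrg1), a ligand of ERBB3 and ERBB4 with many isoforms, was at 8.75, 8.79 and 8.91 in Tie2-Cre mice 1, 3 and 4 and at 9.21, 9.17 and 9.10 in no Cre mice 6, 7 and 10. Here too the groups did not overlap, with Tie2-Cre mouse 4 nearest to the no Cre group. The change was -0.34 (SE 0.074, 95% confidence interval -0.51 to -0.17, limma adjusted p 0.0217), and the intensity was 1.27 times as high without Cre. The call did not survive the removal of Tie2-Cre mice 1 or 3, nor of no Cre mice 6 or 7 (changes -0.31, -0.33, -0.32 and -0.34, adjusted p 0.0692, 0.0681, 0.0811 and 0.0743), and when the probe sets without exactly 1 symbol were added to the test (adjusted p 0.0608). The probe set does not separate the isoforms of Nrg1.

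The other 3 ligands did not pass the test. Betacellulin (Btc), a ligand of the EGF receptor and ERBB4, lay at 6.11, 5.99 and 5.96 in Tie2-Cre mice 1, 3 and 4 and at 6.55, 6.03 and 6.45 in no Cre mice 6, 7 and 10. The groups overlapped through no Cre mouse 7, which was low like the Tie2-Cre mice. The change of -0.33 (SE 0.13) had a limma adjusted p of 0.175, and without no Cre mouse 7 it became -0.49 (SE 0.087, adjusted p 0.0211), within an adjusted p of 0.0211 to 0.397 over its alternatives. Without no Cre mouse 6 the change was -0.22.

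Transforming growth factor alpha (Tgfa), a ligand of the EGF receptor, was at 7.48, 7.58 and 7.37 in Tie2-Cre mice 1, 3 and 4 and at 7.19, 7.47 and 7.34 in no Cre mice 6, 7 and 10. The groups overlapped. Its change of 0.15 had a 95% confidence interval from -0.07 to 0.36 (limma adjusted p 0.395).

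The gene of epidermal growth factor itself (Egf) lay at 6.33, 6.15 and 6.02 in Tie2-Cre mice 1, 3 and 4 and at 6.21, 6.06 and 6.28 in no Cre mice 6, 7 and 10. Its groups overlapped across their whole range, and the change of -0.019 had a 95% confidence interval from -0.25 to 0.21 (limma adjusted p 0.938). A further probe set that the annotation assigns to Egf and another symbol together changed by 0.0056. The mean levels of Egf, Btc and Erbb4 lay at percentiles 30.1, 30.3 and 21.8 of all genes. How far these genes stood above background was not tested.

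**Figure D2:**
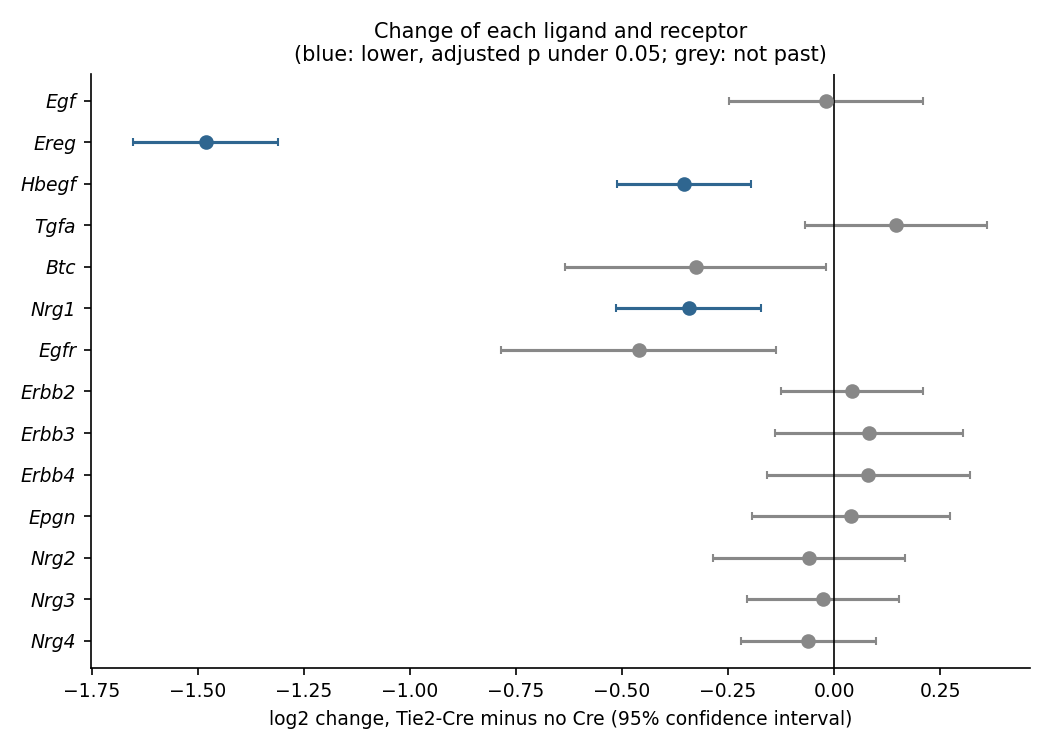
Log2 change of each of the 10 genes and of 4 further ligand genes, with the 95% confidence interval of the limma fit. Ereg at -1.48, Hbegf at -0.35 and Nrg1 at -0.34 (blue) passed the test, and Egfr at -0.46 has a wide interval and did not.

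None of the 4 receptor genes passed the test (limma, 0 higher and 0 lower). Beside 3162 of all 22180 genes, 1 of the 4 was lower at an unadjusted p under 0.05. That gene was Egfr, which encodes the EGF receptor. Its log2 intensity was 9.38, 9.36 and 8.84 in Tie2-Cre mice 1, 3 and 4 and 9.61, 9.70 and 9.65 in no Cre mice 6, 7 and 10. The no Cre mice were close together and all above the Tie2-Cre mice, of which mouse 4 was far lower than the other 2. The SD was 0.31 with Tie2-Cre and 0.041 without Cre. The change of -0.46 (SE 0.14, 95% confidence interval -0.78 to -0.14) had a limma adjusted p of 0.0762. Without Tie2-Cre mouse 4 the change was -0.28 (SE 0.072, adjusted p 0.0552). Removing the dimmest 33.3% of genes brought it past the test (adjusted p 0.0407), as did a robust variance model with a trend (0.0400), within 0.0400 to 0.185 over its alternatives.

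Erbb2, the gene of the receptor without a ligand of its own, was at 8.74, 8.87 and 8.73 in Tie2-Cre mice 1, 3 and 4 and at 8.76, 8.79 and 8.67 in no Cre mice 6, 7 and 10. The arrays of both groups were interleaved. Its change of 0.04 had a 95% confidence interval from -0.13 to 0.21 (limma adjusted p 0.788).

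Erbb3 encodes a neuregulin receptor with little kinase activity of its own. It lay at 7.06, 6.94 and 6.78 in Tie2-Cre mice 1, 3 and 4 and at 6.75, 6.81 and 6.98 in no Cre mice 6, 7 and 10, with overlapping groups. The change of 0.08 had an interval from -0.14 to 0.30 (limma adjusted p 0.672).

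Erbb4 is the gene of the other neuregulin receptor. Its log2 intensity was 5.65, 5.61 and 5.98 in Tie2-Cre mice 1, 3 and 4 and 5.64, 5.64 and 5.72 in no Cre mice 6, 7 and 10. Tie2-Cre mouse 4 was the highest array and the rest lay together. The change of 0.08 had a 95% confidence interval from -0.16 to 0.32 (limma adjusted p 0.702).

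The remaining EGF family ligands were measured by 4 genes, Epgn and the neuregulin genes Nrg2, Nrg3 and Nrg4. Of these, 0 passed the test (limma) and 0 had an unadjusted p under 0.05. Their log2 values lay between 5.82 and 6.93 on all arrays, and their changes between -0.061 and 0.039, with confidence intervals that reached from -0.29 to 0.27 over the 4 genes. All 4 groups of arrays overlapped between Tie2-Cre and no Cre.

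Over 5 lists of genes that act around the receptors, 16 of the 57 measured genes passed the test, 7 higher and 9 lower, or 28.1% beside 12.0% of all genes. The 57 genes were brighter than many others, the dimmest being Ier2 at percentile 38.4 of all genes. With the dimmest 33.3% of genes left out, 9 of the 57 were higher and 11 lower. Of all 14786 genes left, 1360 were then higher and 1950 lower, a larger share than the 12.0% above. The median change over the 57 genes was 0.025. Of the 65 genes listed, 8 were not analysed here. Leaving out any of the 6 mice reduced the higher genes to 3 or 4, and leaving out no Cre mouse 7 or 10 reduced the lower genes to 5. When the probe sets without exactly 1 symbol were added to the test, 8 of the 16 calls were lost, namely Rhbdf1, Frmd8, Ptpn11, Map2k1, Akt2, Errfi1, Cblb and Dusp4 (adjusted p 0.0531 to 0.108).

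**Figure D3:**
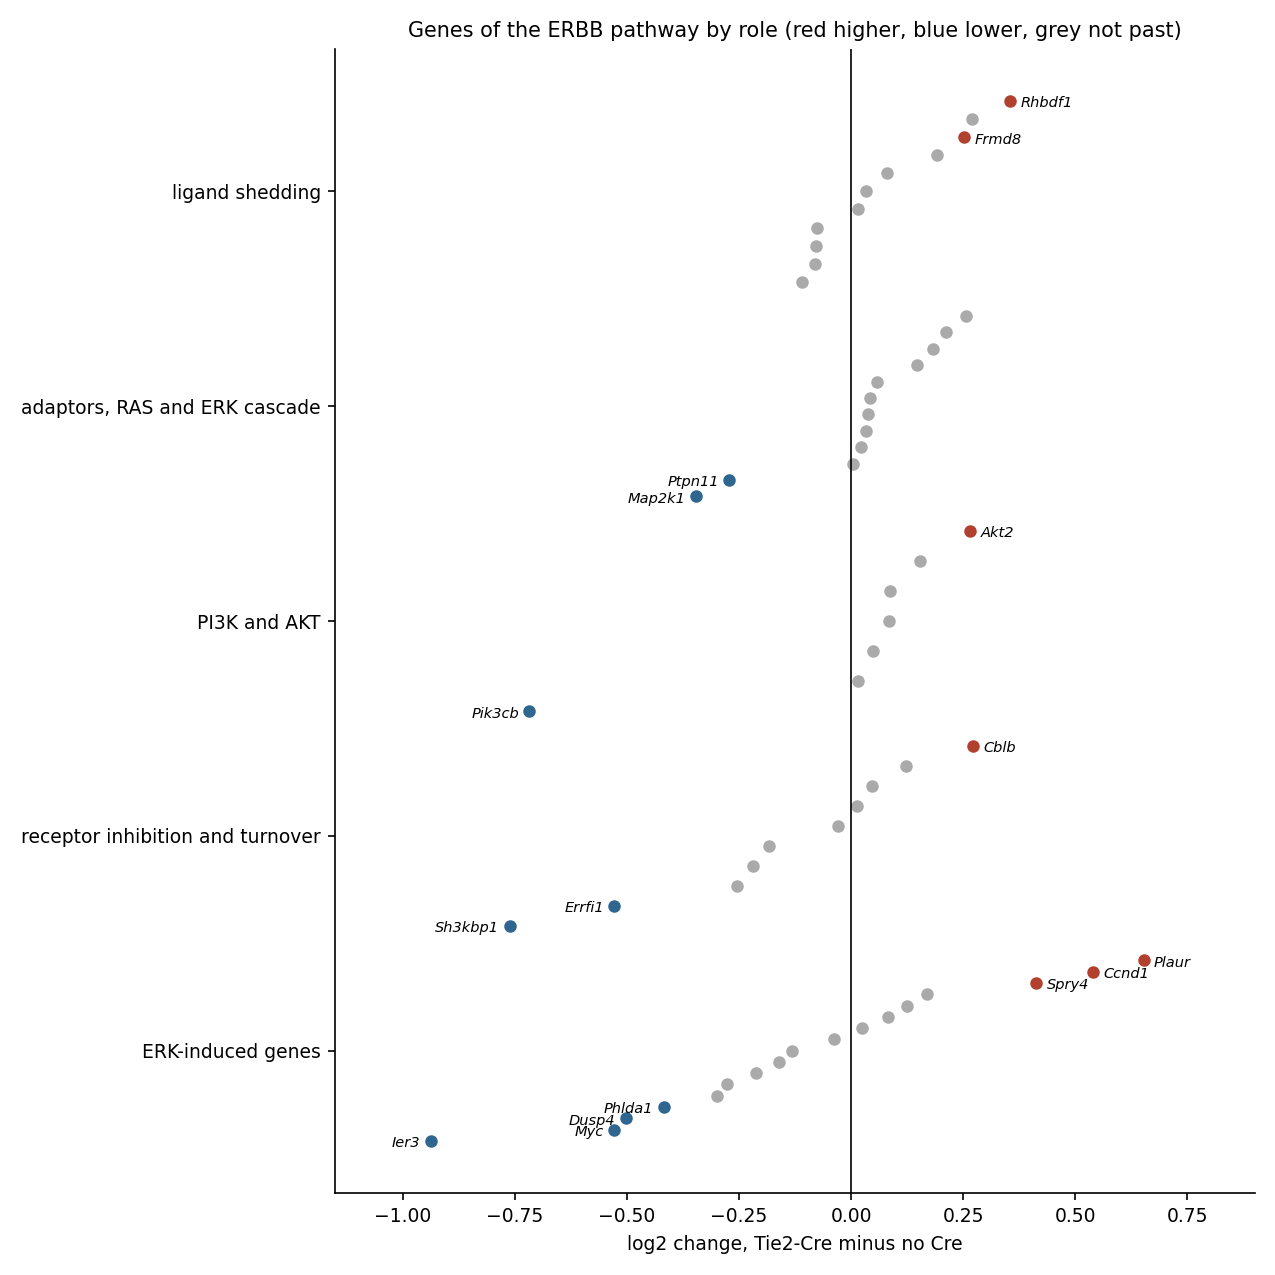
Log2 change of each measured gene of 5 lists around the ERBB receptors, with genes past the test in red (higher) or blue (lower) and named. The list of ERK-induced genes holds changes in both directions, from Ier3 at -0.94 to Plaur at 0.65.

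Among 11 genes of ligand shedding, 2 rose and 0 fell (limma). At an unadjusted p under 0.05 the counts were 3 higher and 0 lower, beside 2362 higher and 3162 lower of all 22180 genes. The share past the test was 18.2%, beside 12.0% of all genes in either direction and 4.78% higher. Rhbdf1, which encodes the inactive rhomboid protein iRhom1 that guides the sheddase ADAM17 to the cell surface, rose by 0.35 (SE 0.078, adjusted p 0.0233). Frmd8, whose product stabilises the complex of iRhoms with ADAM17, rose by 0.25 (SE 0.062, adjusted p 0.0353). The sheddase gene Adam17 itself changed by -0.076 and Adam10 by -0.11, neither past the test. Rhbdf1 still passed when Tie2-Cre mouse 1 was removed, but not when any other mouse was (adjusted p 0.0505 to 0.0848), and that of Frmd8 was lost without any mouse (adjusted p 0.0704 to 0.111).

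Of 12 genes of the adaptors, RAS and the ERK cascade, 2 fell and 0 rose (limma). At an unadjusted p under 0.05, 2 were lower and 2 higher, beside 3162 lower and 2362 higher of all 22180 genes. The share past the test was 16.7%, beside 12.0% of all genes. Ptpn11, the gene of the phosphatase SHP2 that carries receptor signals to RAS, fell by 0.27 on the log2 scale (SE 0.063, adjusted p 0.0294). Map2k1, the gene of the ERK kinase MEK1, fell by 0.35 (SE 0.082, adjusted p 0.0315). The call of Ptpn11 was lost without any mouse (adjusted p 0.0656 to 0.107), and that of Map2k1 was kept only without Tie2-Cre mouse 1 (lost calls at adjusted p 0.0547 to 0.109). Among 7 genes of PI3K and AKT, 1 fell and 1 rose, or 28.6% beside 12.0%. Pik3cb, a catalytic subunit of PI3K, fell by 0.72 (SE 0.11, adjusted p 0.00435) and passed without each mouse in turn, while Akt2 rose by 0.27 (SE 0.066, adjusted p 0.0379) and did not pass without any of them (adjusted p 0.0766 to 0.134).

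Among 10 genes of receptor inhibition and turnover, 2 fell and 1 rose, or 30.0% beside 12.0% of all genes. Sh3kbp1, whose product CIN85 links the receptor to the endocytic machinery together with CBL, was at 9.34, 9.35 and 8.85 in Tie2-Cre mice 1, 3 and 4 and at 9.90, 9.91 and 10.02 in no Cre mice 6, 7 and 10. It fell by 0.76 on the log2 scale (SE 0.13, limma adjusted p 0.00924). Errfi1, whose product MIG6 binds the EGF receptor kinase and inhibits it, was at 10.62, 10.54 and 10.23 in Tie2-Cre mice 1, 3 and 4 and at 10.95, 10.98 and 11.04 in no Cre mice 6, 7 and 10. Its change was -0.53 (SE 0.11, limma adjusted p 0.0166), a call that the removal of no Cre mouse 7 or 10 ended (adjusted p 0.0550 and 0.0653), as did the added probe sets (0.0531). As in Egfr, mouse 4 was the lowest of the Tie2-Cre mice in both genes. It also stood apart from Tie2-Cre mice 1 and 3 in some markers of other cells. In the smooth muscle gene Myh11 it lay at 10.05 against 9.05 and 9.05. In the fibroblast gene Pdgfra it lay at 11.05 against 11.55 and 11.54. In Pdpn it lay at 11.52 against 11.99 and 11.96, and in Dcn at 12.23 against 12.56 and 12.57. Both lists were mixed. Among the Tie2-Cre mice, mouse 4 was also lowest in the fibroblast genes Lum (7.15) and Col1a1 (11.95). It was highest in Col3a1 (10.50) and Col1a2 (10.07), and in the middle in Dpt (11.87). Of the mural genes it was highest in Acta2 (13.88) and Tagln (12.94), but lowest in Pdgfrb (12.02) and Notch3 (8.82). The part of these markers in the values of mouse 4 was not tested. Without Tie2-Cre mouse 4 the changes were -0.60 for Sh3kbp1 and -0.41 for Errfi1. Cblb, a ubiquitin ligase that marks active receptors for degradation, rose by 0.27 (SE 0.063, limma adjusted p 0.0279) and did not pass without any of the mice (adjusted p 0.0592 to 0.101).

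**Figure D4:**
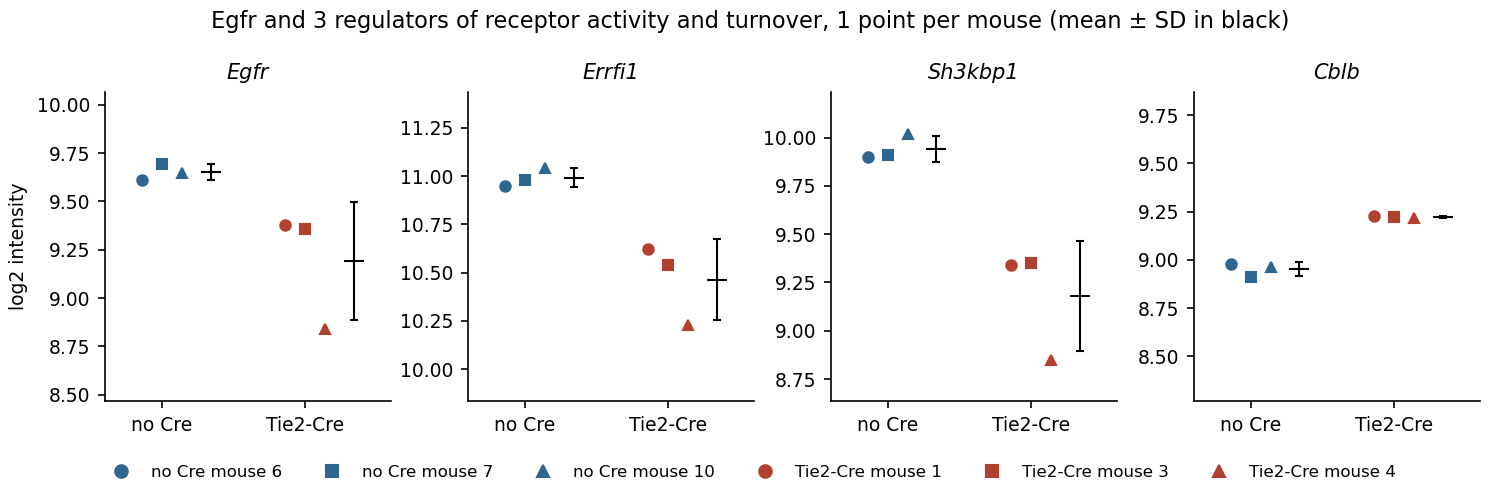
Log2 intensity of Egfr and of Errfi1, Sh3kbp1 and Cblb in each mouse, with every panel spanning the same number of log2 units and black bars for the mean ± SD of 3 mice. Tie2-Cre mouse 4 (red triangle) is the lowest array in Egfr, Errfi1 and Sh3kbp1, while the Tie2-Cre mice lie together around a mean of 9.22 in Cblb.

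Genes that ERK signalling is known to induce moved in both directions. Of 17 genes 4 fell, 3 rose and 10 did not pass, so that 41.2% passed beside 12.0% of all genes. With the dimmest 33.3% of genes left out, 6 of the list were lower and 3 higher. Of the 14786 genes left, 1950 were then lower and 1360 higher, a larger share than the 12.0%. The stress-induced gene Ier3 fell by 0.94 on the log2 scale (SE 0.11, adjusted p 0.00148), the transcription factor gene Myc by 0.53 (SE 0.076) and Phlda1 by 0.42 (SE 0.070). Dusp4, a phosphatase that switches ERK off, fell by 0.50 (SE 0.13, adjusted p 0.0433), and among the 6 removals of a mouse its call was kept only without Tie2-Cre mouse 4. Normalizing by quantiles again also ended it (change -0.47, adjusted p 0.0511), as did the added probe sets (0.108). The urokinase receptor gene Plaur rose by 0.65 (SE 0.082, adjusted p 0.00199), the cyclin gene Ccnd1 by 0.54 (SE 0.070) and the RAS pathway inhibitor Spry4 by 0.41 (SE 0.065). The immediate early genes Egr1 and Fos changed by -0.30 and -0.28 and did not pass (limma adjusted p 0.0953 and 0.0806). Junb and Ier2, also immediate early genes, changed by 0.025 and 0.081 and did not pass either (limma adjusted p 0.931 and 0.636). The median change of the list was -0.13.

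Some markers of other cell types moved between the same groups as Ereg, Hbegf and Nrg1. Their counts are to be read beside 4.78% of all genes higher, 7.17% lower and 12.0% in either direction, and the shares of 14.3% for neutrophil, 15.4% for macrophage and 16.7% for neuronal markers lie near the last of these. Of 11 mesothelial and epithelial markers, 3 were lower and 0 higher (limma), and the mean of the list ranged from 6.79 to 6.94 in Tie2-Cre mice and from 7.23 to 7.36 in the others. The 3 were the uroplakin genes Upk1b (-3.29) and Upk3b (-1.36) and the keratin gene Krt19 (-0.42), named after their values were seen, while the defining markers Msln and Wt1 changed by -0.087 and 0.090 without passing. Of 13 macrophage and microglia markers, 2 were lower, Cd68 (-0.99) and Csf1r (-0.42), and the list mean was 6.40 to 6.49 against 6.56 to 6.58, with a median change of -0.053. The other 11 did not pass, among them Adgre1 (-0.053), Ptprc (-0.21), Aif1 (-0.0096), Itgam (0.15) and Tyrobp (0.14). Of 10 pericyte and smooth muscle markers, 6 were higher, with list means of 9.88 to 10.08 against 9.45 to 9.50. The 6 were Rgs5 (1.45), Notch3 (1.08), Myh11 (0.92), Cspg4 (0.67), Acta2 (0.47) and Pdgfrb (0.27). Tagln (0.36), Kcnj8 (0.0083), Abcc9 (-0.072) and Des (-0.095) did not pass. Fibroblast markers went both ways, with 3 of 9 higher, Dpt (3.54), Pdgfra (1.65) and Lum (1.27), and 2 lower, Dcn (-0.76) and Pdpn (-0.69). Their list means were 10.44 to 10.67 against 10.04 to 10.07, but the median change was -0.068 and 5 of the 9 changes were negative. Of 7 neutrophil markers 1 was lower, S100a8 (-0.55), a dim gene with a mean of 5.24 at percentile 15.4 of all genes. The other 6 did not pass, among them S100a9 (0.15) and Camp (-0.15). Among 5 T and NK cell markers, 0 passed in either direction (limma, also 0 at an unadjusted p under 0.05). Of 8 astrocyte and glioma markers 2 were higher, Nes (0.59) and S100b (0.57). Gfap (-0.094), Olig2 (0.080), Sox2 (-0.13), Aqp4 (0.025), Slc1a3 (0.28) and Fabp7 (-0.31) did not pass. Among 6 neuron and oligodendrocyte markers 1 was higher, Tubb3 (1.06). Rbfox3 (-0.026), Snap25 (0.064), Syt1 (0.19), Mbp (-0.14) and Mog (-0.057) did not pass. Eng changed by -0.30 (SE 0.064, limma adjusted p 0.0217). Its call held in 1 of the 6 removals of a mouse, that of Tie2-Cre mouse 3 (adjusted p 0.0474), while the other removals gave 0.0571 to 0.0827 and the added probe sets 0.0579. Of the endothelial markers besides Eng, 0 of 12 passed (limma, 1 lower at an unadjusted p under 0.05). At that unadjusted threshold, 3162 of all 22180 genes were lower and 2362 higher. The part of all these markers in the changes of the ligands was not tested.

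The genes whose pattern over the 6 arrays was most like that of Ereg were named by the smallest root mean square difference between values centred on each gene's own mean. They were Cd34, a surface sialomucin of vessel and progenitor cells (0.067 log2), Fam110c (0.073), the adenylate cyclase gene Adcy7 (0.081), the ectoenzyme gene Bst1 (0.085) and the pantetheinase gene Vnn1 (0.086). Cd34 lay at 6.91, 7.02 and 6.86 in Tie2-Cre mice 1, 3 and 4 and at 8.47, 8.42 and 8.49 in no Cre mice 6, 7 and 10. The changes of the 5 genes ran from -1.55 to -1.41, which their choice by likeness to Ereg fixes.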

How the data were processed

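Each mouse gave 1 Affymetrix Mouse Gene 2.0 ST array. Per the labels, the authors used RMA, and the submitters' processing notes name Affymetrix Expression Console, with no version or genome build given in the sources used here. The intensity values as deposited by the authors are linear (5.13 to 17822), and log2 was computed from them. Of 41345 probe sets, 23521 had 1 symbol, 1814 several and 16010 none. For a symbol with several probe sets the brightest by mean over the arrays stood for it, so that 1341 were set aside and 22180 genes remained.

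Groups were compared with limma 3.58.1 in R 4.3.3 (lmFit, eBayes, two-sided, Benjamini-Hochberg over all genes). The fit was also run on simulated data with known shifts and independent noise, as a check of the code. No call above rests on it. The number of arrays limits the precision, with a median SD over genes of 0.10 and 0.089 log2 in the Tie2-Cre and no Cre groups. The labels name separate mice.

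Members and lists were chosen with earlier results of these data known. Named were all members, Pfn1, the other ligands, sex-linked genes and the 5 genes most like Ereg. From each pathway list, up to 4 rises and 4 falls with the smallest p were named. The 3 brightest genes each of the fibroblast and mural lists were named too, and no gene of the T and NK list. Other names (Adam10, Adam17, Egr1, Fos, Junb, Ier2 and further marker genes, also those for mouse 4) were chosen after their values were seen. Alternatives changed the probe sets, the filter on dim genes, the normalization, the variance model, array weights, the call rule and the mice. The fit of each probe set on its own was added after the data were seen.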

Additional observations from a re-analysis of the deposited data

How the results depend on the processing

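The fall of Ereg passed under all 15 alternatives, with changes of -1.52 to -1.21. An unadjusted p under 0.05 with at least a 1.5-fold change left 1 of the 3 lower members, 1 higher and 3 lower pathway genes, and 424 higher and 551 lower genes of all. With the probe sets without exactly 1 symbol added, 3 pathway genes were higher and 5 lower. Leaving out each mouse in turn gave 2 to 3 lower members, 3 to 4 higher and 5 to 8 lower pathway genes, and 634 to 903 higher and 910 to 1253 lower genes of all, with 910 lower genes without no Cre mouse 7 and 634 higher genes without no Cre mouse 10. These runs hold 5 arrays. The lower members were not the same in each run. Without no Cre mouse 7 they were Ereg and Btc, while Hbegf and Nrg1 did not pass. Small changes that were not past the test turned direction without Tie2-Cre mouse 3 (Erbb2 -0.0023, Nrg3 0.0063), Tie2-Cre mouse 4 (Egf 0.054, Erbb4 -0.035, Epgn -0.041), no Cre mouse 6 (Epgn -0.038), no Cre mouse 7 (Nrg3 0.018) and no Cre mouse 10 (Egf 0.028, Nrg2 0.031). Over these removals Egf ranged from -0.10 to 0.054, Erbb2 from -0.0023 to 0.067, Erbb4 from -0.035 to 0.15, Epgn from -0.041 to 0.097, Nrg2 from -0.13 to 0.031 and Nrg3 from -0.082 to 0.018. Beyond these 9, of the changes of single genes under alternatives 520 kept direction and side of the threshold, 78 no longer passed and 3 newly passed. Causes were not tested beyond the number of arrays or probe sets. The filters on dim genes gave no value for genes they removed. No paired analysis was possible because the mouse numbers of the groups differ. The deposited values carry no detection call, so signal over background of dim members was not tested.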
